A study of Mus musculus with 6 samples.

Results

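The genes described here are 33 tubulins, stathmins, tubulin-modifying enzymes and tubulin folding cofactors. They were chosen by gene symbol from among 32101 genes, by a rule that names the families and uses no measured value, though with earlier results of these data known. They were read in 6 poly(A) RNA libraries from mouse embryonic fibroblast (MEF) lines. The embryos carried loxP-flanked alleles of Macf1, the gene of a giant spectraplakin protein that links actin filaments to microtubules. The question posed by the design was what differs between cells that lost both Macf1 alleles and cells that kept 1.

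The knockout group (Macf1-/-) held 3 clones from Macf1flox/flox cells, and the het group (Macf1-/+) held 3 clones from Macf1flox/+ cells. Clones of both groups carried the SV40 large T antigen, which immortalizes cells, had been exposed to AAV8-CMV-Cre, a virus that brings Cre recombinase under a promoter active in many cell types, and had been raised from single cells. Each library is therefore 1 clonal line and not a mixed culture or an animal. The number and age of the embryos are not given in the sources, nor is it stated that clones of the same genotype had independent origins, so the p-values measure the spread between clones.

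Microtubules are built from dimers of an alpha and a beta tubulin, each encoded by several genes whose products, called isotypes, differ most in the tail at their carboxy end. That tail carries enzymatic marks: a terminal tyrosine of alpha tubulin can be removed and put back, and chains of glutamate can be added and trimmed. Stathmins bind free dimers and keep them from assembling, and a chain of folding cofactors joins newly made alpha and beta tubulin into dimers. Fibroblasts in culture mainly use broadly expressed isotypes, while Tuba1a, Tubb2a, Tubb2b and Tubb3 are best known for their high levels in neurons.

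Estimated counts totalled 16581833 to 18209673 per library in the knockout clones and 15661342 to 17614982 in the het clones. Values below are CPM, which are counts scaled to a common library size, or TPM, which also divide by transcript length, wherever the levels of different genes are set side by side. Macf1 itself measured 309, 363 and 322 CPM in the knockout clones, against 693, 696 and 579 CPM in the het clones. Of 11 tested fibroblast marker genes, 7 fell and 0 rose in knockout clones (adjusted p under 0.05, edgeR), where 14.2% of all genes tested fell. DESeq2 called 8 lower and 1 higher, and limma-voom 5 lower and 0 higher. In edgeR 7 were lower and 1 was higher at an unadjusted p under 0.05. The summed level of these markers, untested ones included, was 6682 to 9095 CPM in the knockout clones and 10696 to 14005 CPM in the het clones. Col5a1 averaged 593 CPM in the knockout clones and 438 CPM in the het clones, and did not pass (adjusted p = 0.102, edgeR). Vim and Fn1 were abundant in both genotypes (2866 and 4269 CPM on average in the knockout clones, 2425 and 5774 CPM in the het clones). Col1a1 (7.40 CPM in knockout and 1229 CPM in het clones), Col1a2 (0.816 and 1056 CPM) and Fbln2 (2.53 and 639 CPM) were nearly absent from the knockout clones but not from the het clones, and Lum was at 0 in all 6 libraries. Of 12 neuronal markers, 10 were too low to be tested, Rbfox3 and Elavl4 were at 0 in every library, and the summed level was 15.2 to 20.01 CPM in the knockout clones and 23.8 to 63.6 CPM in the het clones, most of it Map2 (16.6 CPM in knockout and 40.6 CPM in het clones). Epithelial markers summed to 0.492 to 1.09 CPM in the knockout clones and 16.2 to 56.7 CPM in the het clones, nearly all of it Krt19. Glial and neural crest markers summed to 10.3 to 23.1 CPM in the knockout clones and 6.34 to 7.02 CPM in the het clones, mostly Erbb3. Endothelial, immune and muscle markers each summed to at most 6.08 CPM in any library. The part of these marker differences in the results below was not tested. In whole-culture RNA, fewer cells of a type and less RNA per cell cannot be told apart.

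Of the 33 genes, 29 were abundant enough to be tested. In edgeR's quasi-likelihood test with Benjamini-Hochberg adjustment over 12746 genes, 2 of them were higher in the knockout clones (Stmn4 and Tbcc) and 8 were lower (Tuba1a, Tubb2a, Tubb2b, Tubb3, Stmn1, Ttl, Ttll4 and Tbce), while 19 did not pass. Among all genes tested 28.1% passed in either direction, 13.9% higher and 14.2% lower. Among the 29 genes the shares were 34.5% in either direction, 6.90% higher and 27.6% lower. Knockout and het clones were without overlap in CPM for 12 of the 29 genes, or 41.4%, against 47.5% of all genes tested. The median log2 fold change was -0.15 over the 29 genes and 0.00 over all genes tested. The count of lower genes was 4 without knockout replicate 1, without knockout replicate 2 or without het replicate 2, and 5 without het replicate 3. The count of higher genes was 1 without knockout replicate 2.

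**Figure D1:**
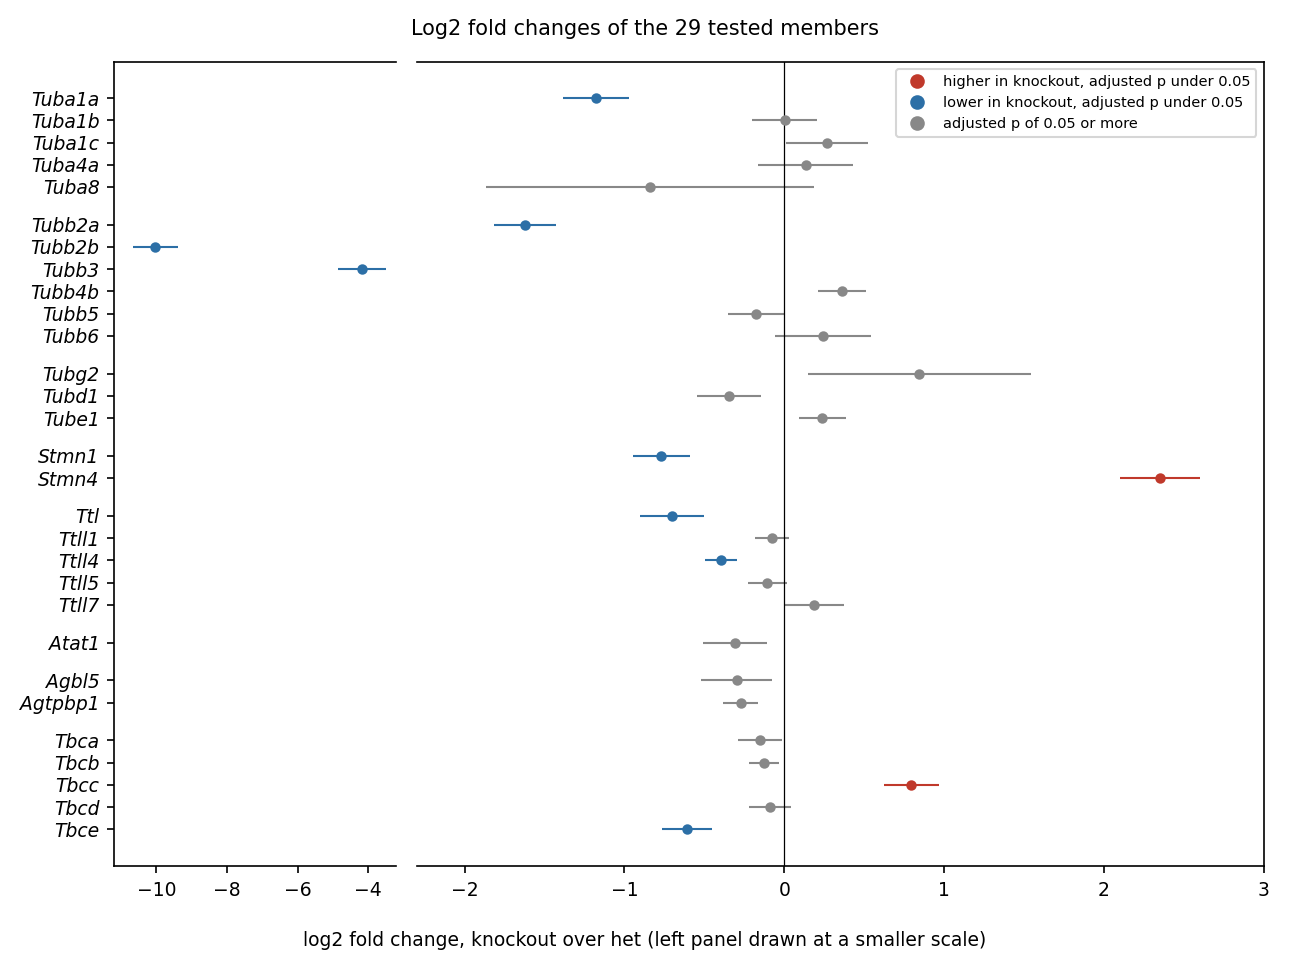
Log2 fold change of each of the 29 tested genes, knockout over het (horizontal axis, points with 1 standard error), grouped from top to bottom as alpha tubulins, beta tubulins, other tubulins, stathmins, tyrosine and glutamate ligases, the acetyltransferase, carboxypeptidases and folding cofactors. Tubb2b at -10.03 and Tubb3 at -4.18 stand in the left panel, which has a smaller scale, and Stmn4 at 2.35 lies farthest to the right.

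The isotypes' tails, on which several of the enzymes below act, are encoded by the last codons of each gene. For 5 beta isotypes the last 20 sense codons and the stop codon are given here from the GENCODE M21 transcripts (GRCm38), with the last sense codon in capitals, to show how the isotypes that fell differ from the abundant ones.
Tubb2b (chr13:34127471-34127533, minus strand): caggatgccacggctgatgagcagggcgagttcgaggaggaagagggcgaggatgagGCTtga
Tubb2a (chr13:34074468-34074530, minus strand): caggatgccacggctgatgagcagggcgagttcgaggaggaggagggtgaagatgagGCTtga
Tubb3 (chr8:123421620-123421682, plus strand): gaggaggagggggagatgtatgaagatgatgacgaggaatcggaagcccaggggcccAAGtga
Tubb4b (chr2:25222308-25222370, minus strand): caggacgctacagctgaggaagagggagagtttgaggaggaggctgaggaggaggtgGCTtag
Tubb5 (chr17:35834982-35835044, minus strand): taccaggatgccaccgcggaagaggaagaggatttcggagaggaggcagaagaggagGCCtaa
The tails of Tubb2b and Tubb2a differed at 3 of 63 bases, and none of these changed the encoded amino acid. The number of glutamate codons (GAA or GAG) among these 20 codons was 8 in Tubb2a, Tubb2b and Tubb3, 10 in Tubb4b and 9 in Tubb5. The tail of Tubb3, which ends in a lysine codon, is unlike those of the other beta isotypes shown.

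Among the 5 alpha tubulin genes, 1 fell and 4 did not pass. Tuba1a (ENSMUSG00000072235; chr15:98949837-98953703, minus strand, GRCm38) measured 488, 482 and 311 CPM in the knockout clones, against 1045, 1002 and 853 CPM in the het clones. Each knockout clone was lower than the lowest het clone, and knockout replicate 3 was the lowest of all. The log2 fold change came to -1.18 (SE 0.20, adjusted p = 0.00757 by edgeR), and the mean in the het clones was 2.26 times that in the knockout clones. Reads of the alpha tubulin genes had to be divided by estimation, since 21.4% of the 31-base stretches of Tuba1a, 14.0% of those of Tuba1b and 36.1% of those of Tuba1c occurred in no other annotated gene. The sum of these 3 genes was 3995, 3693 and 2555 CPM in the knockout clones, against 4022, 4158 and 3349 CPM in the het clones. These groups overlapped, and the mean of the sum in the het clones was 1.13 times that in the knockout clones. Of the 31-base stretches of Tuba1b, 66.8% also occurred in the annotated gene AC157548.1, which is not in this sum.

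Tuba1b, the neighbouring gene with nearly the same coding sequence (98.3% of 1356 bases alike) and the main alpha isotype of dividing cells, measured 2700, 2516 and 1826 CPM in the knockout clones, against 2431, 2543 and 2059 CPM in the het clones. The groups overlapped, and the log2 fold change was 0.00 (SE 0.20, adjusted p = 0.996, edgeR), with a sign that turned negative under other scalings. Tuba1c, the third gene of this cluster on chromosome 15, measured 807, 695 and 418 CPM in the knockout clones, against 546, 613 and 437 CPM in the het clones. Here too the groups overlapped, since knockout replicate 3 lay below every het clone (log2 fold change 0.27, SE 0.26, adjusted p = 0.474, edgeR). Tuba4a averaged 116 ± 36.9 CPM in the knockout clones and 106 ± 27.9 CPM in the het clones (SD, n = 3 each; adjusted p = 0.765, edgeR). Tuba8, an isotype with low levels in most tissues, had 53 counts in the 3 knockout libraries together and 87 in the 3 het libraries. Its values ranged from 0.183 to 2.12 CPM in the knockout clones and from 0.239 to 3.07 CPM in the het clones, so the spread within each genotype was larger than the difference between them (adjusted p = 0.579, edgeR).

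Per length, Tuba1b was the most abundant alpha tubulin RNA in every library, at 2605 ± 309 TPM in the knockout clones and 2627 ± 252 TPM in the het clones. Next came Tuba1c at 620.5 ± 148 TPM and Tuba1a at 506 ± 82.2 TPM in the knockout clones, whereas in the het clones Tuba1a was at 1235 ± 135 TPM and Tuba1c at 524 ± 84.1 TPM (SD, n = 3 each). The order of these 2 genes was thus opposite in the genotypes, although in the knockout clones their difference was smaller than the sum of their SDs. Within each knockout library Tuba1c was above Tuba1a, at 731 against 543, 677 against 564 and 453 against 412 TPM. Tuba1a made up 12.8%, 13.4% and 12.8% of alpha tubulin RNA in the knockout clones, against 28.0%, 27.0% and 26.7% in the het clones. Knockout replicate 3, which had the lowest level of Tuba1a, had the same share of it as knockout replicate 1. Tuba1b made up 67.2 ± 2.29% in the knockout clones and 57.9 ± 0.578% in the het clones, and Tuba1c 15.8 ± 1.62% and 11.5 ± 0.631%. For these 3 genes the shares of the genotypes did not overlap, which gives an exact two-sided permutation p of 0.10, the smallest that 3 against 3 clones allow. The shares of a genotype sum to 100%, so they cannot move independently. Summed over the 5 genes, alpha tubulin RNA stood at 4238, 4211 and 3221 TPM in the knockout clones, against 4464, 5050 and 4099 TPM in the het clones, and the groups overlapped.

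**Figure D2:**
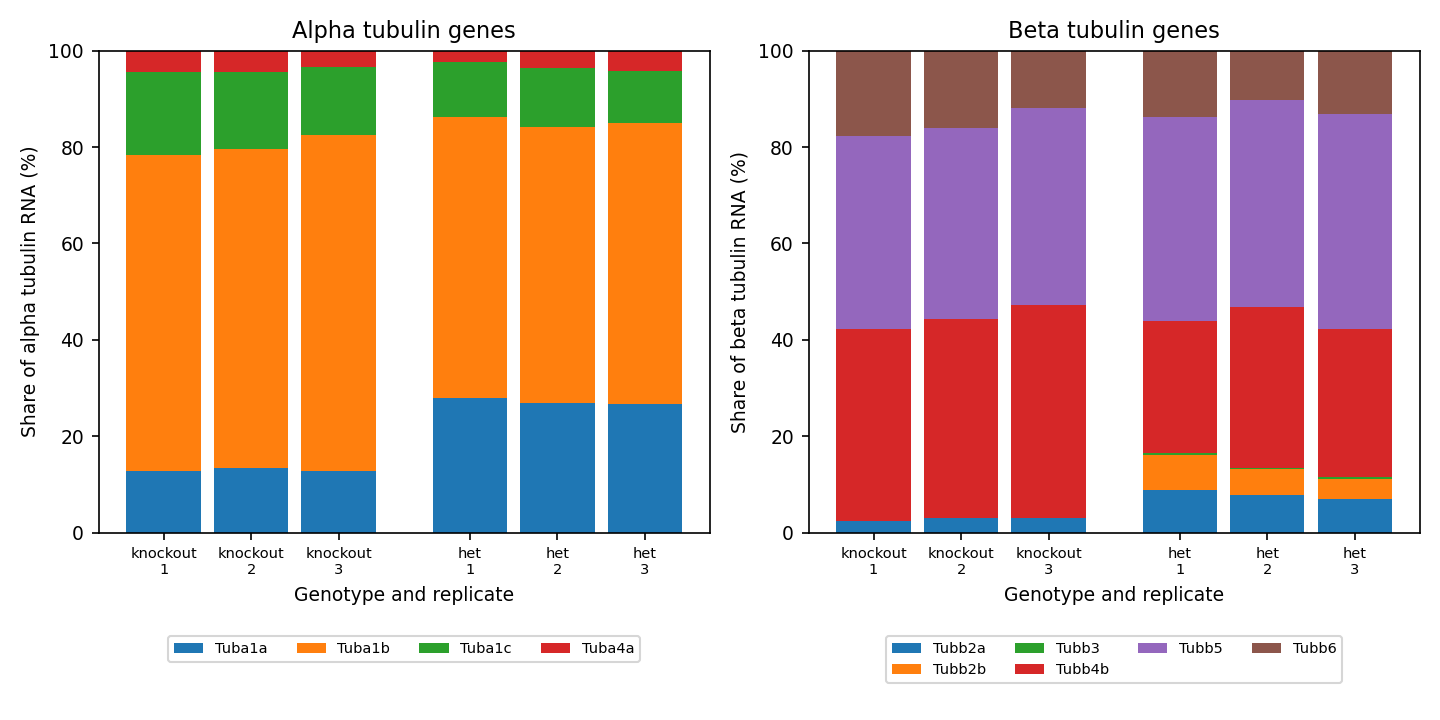
Share of each isotype in alpha tubulin RNA (left) and beta tubulin RNA (right), in percent of reads per kilobase of transcript, for each knockout clone and each het clone. Tuba1a takes 12.8% to 13.4% of alpha tubulin RNA in the knockout clones and 26.7% to 28.0% in the het clones, and Tubb2b is visible in the het clones alone. Tuba8, Tubb1 and Tubb4a are too rare to be drawn.

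Among the 8 beta tubulin genes, 3 fell, 3 did not pass and 2 were not tested. Tubb2b (ENSMUSG00000045136; chr13:34126748-34130466, minus strand, GRCm38), an isotype of neurons and glia, measured 0.305, 0 and 0.0517 CPM in the knockout clones, against 181, 118 and 87.8 CPM in the het clones. Every het clone expressed it, and it was at the limit of detection in every knockout clone. Over all libraries it had 6 counts in the knockout clones and 6525 in the het clones, a ratio of het over knockout of 1120 (exact 95% interval 514 to 3054, for counting error only). The fitted log2 fold change of -10.03 (adjusted p = 0.000334, edgeR) depends on how so few counts are handled and lay between -11.84 and -5.95 under the other settings tried.

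Tubb2a (ENSMUSG00000058672; chr13:34074274-34078007, minus strand), the neighbour of Tubb2b, measured 48.4, 58.7 and 41.1 CPM in the knockout clones, against 187, 146 and 123 CPM in the het clones. The groups were well apart, and the lowest het clone had more than each knockout clone (log2 fold change -1.62, SE 0.20, adjusted p = 0.00237, edgeR). Since the coding sequences of this pair were 96.5% identical over 1338 bases, reads had to be divided between them by estimation. The stretch of 60 coding bases in which they differ most is shown with the differing bases in capitals, because such bases are what tells their reads apart.
Tubb2b (chr13:34129289-34129348, minus strand, GRCm38): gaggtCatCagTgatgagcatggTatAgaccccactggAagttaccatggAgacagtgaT
Tubb2a (chr13:34076592-34076651, minus strand, GRCm38): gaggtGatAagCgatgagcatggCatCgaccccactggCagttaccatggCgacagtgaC
There were 8 differing bases in this stretch. Over the whole of their most abundant transcripts, 54.1% of the 31-base stretches of Tubb2b and 43.6% of those of Tubb2a occurred in no other annotated gene. The sum of both genes, which does not depend on the division between them, was 48.7, 58.7 and 41.1 CPM in the knockout clones, against 368, 265 and 211 CPM in the het clones. The mean of the sum in the het clones was 5.67 times that in the knockout clones.

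The promoter of Tubb2a, as the 250 bases before its RefSeq start (chr13:34078009-34078258, minus strand, GRCm38.p6), is shown because this gene fell and its window held a TATA box. Capitals mark TATAAA and GGGCGG (a GC box), searched on both strands. CCAAT, the other motif searched, was not found in it.
Tubb2a promoter: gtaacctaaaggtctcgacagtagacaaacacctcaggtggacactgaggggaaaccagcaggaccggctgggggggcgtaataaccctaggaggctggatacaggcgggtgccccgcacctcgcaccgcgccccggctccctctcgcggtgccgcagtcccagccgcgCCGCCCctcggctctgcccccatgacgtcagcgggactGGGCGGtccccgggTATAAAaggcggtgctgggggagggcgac
The TATA match began 29 bases before the start. The windows of Tuba1a, Tubb3, Ttl, Ttll4 and Tbce, the other genes that fell and had a promoter sequence, held no TATAAA. Among 32851 promoters of the same length, 12.4% held TATAAA, 32.7% held GGGCGG and 33.8% held CCAAT on either strand. These matches describe the letters of the window and are not shown to be sites of binding.

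Tubb3 (ENSMUSG00000062380; chr8:123411424-123422015, plus strand, GRCm38), the isotype used as a marker of young neurons, measured 0.244, 0.185 and 0.827 CPM in the knockout clones, against 13.3, 4.83 and 5.58 CPM in the het clones. It was low in both genotypes and the groups did not overlap, with het replicate 1 the highest. It had 23 counts in the knockout libraries and 397 in the het libraries, a ratio of het over knockout of 17.8 (exact 95% interval 11.7 to 28.4, for counting error only). The log2 fold change was -4.18 (SE 0.69, adjusted p = 0.00633, edgeR) and was -2.01 on the log2(FPKM + 1) scale, on which changes of low genes are understated. On a length-corrected scale Tubb3 made up 0.0230 ± 0.0240% of beta tubulin RNA in the knockout clones and 0.344 ± 0.170% in the het clones (SD, n = 3 each). Of the 2 neuronal markers that could be tested, Map2 passed and had a log2 fold change of -1.29 (adjusted p = 0.0316, edgeR), and Syp did not pass (0.16, adjusted p = 0.824). DESeq2 called 1 neuronal marker lower and limma-voom 0. Whether neuron-like cells or RNA contributed to Tubb3 or Tubb2b was not tested.

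The 3 abundant beta isotypes did not pass. Tubb5, the main beta isotype of most dividing cells, measured 1296, 1221 and 905 CPM in the knockout clones, against 1398, 1243 and 1226 CPM in the het clones (log2 fold change -0.18, adjusted p = 0.488, edgeR). Tubb4b, a broadly expressed isotype that is also found in cilia, measured 809.5, 803 and 613 CPM in the knockout clones, against 575, 622 and 536 CPM in the het clones. The groups of Tubb4b overlapped through knockout replicate 3 (log2 fold change 0.36, SE 0.15, adjusted p = 0.118, edgeR). Without that clone its log2 fold change was 0.48 (adjusted p = 0.0265, edgeR). The 40 tested genes nearest to it on chromosome 2 had a median log2 fold change of 0.56, and with this local median removed the value for Tubb4b was -0.12 (adjusted p = 0.675, edgeR). Of the 31-base stretches of its main transcript, 54.5% also occurred in the pseudogene Tubb4b-ps1, so the division of its reads is uncertain. Tubb6, an isotype typical of fibroblasts, muscle and other non-neuronal cells, averaged 309 ± 113 CPM in the knockout clones and 262 ± 53.5 CPM in the het clones (SD, n = 3 each; adjusted p = 0.588, edgeR).

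Per length, Tubb4b and Tubb5 led the beta tubulins. Tubb4b had 904 ± 73.3 TPM and Tubb5 872 ± 91.5 TPM in the knockout clones, so that these genes did not differ beyond their spread there, while in the het clones Tubb5 had 1005 ± 29.3 TPM and Tubb4b 709.5 ± 56.0 TPM (SD, n = 3 each). As shares of beta tubulin RNA, Tubb4b made up 39.9%, 41.2% and 44.1% in the knockout clones, against 27.4%, 33.5% and 30.7% in the het clones. Tubb2a made up 2.79 ± 0.348% in the knockout clones and 7.96 ± 0.934% in the het clones, and Tubb2b 0.00533 ± 0.00627% and 5.51 ± 1.49%. Tubb5 made up 40.2 ± 0.700% and 43.2 ± 1.19%. Each of these shares, and that of Tubb3, was without overlap between the genotypes (exact permutation p = 0.10, the smallest possible), whereas the share of Tubb6 overlapped at 15.2 ± 3.04% in the knockout clones and 12.4 ± 1.83% in the het clones (exact permutation p = 0.30). Beta tubulin RNA as a whole stood at 2287, 2359 and 1872 TPM in the knockout clones, against 2457, 2312 and 2214 TPM in the het clones. As with alpha tubulin, the total overlapped between the genotypes.

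Tubb1, the isotype of platelets, had 0 counts in every library, which allows up to 0.0577 CPM over the knockout group and 0.0595 CPM over the het group (3 counts, counting error only). Tubb4a, an isotype of neurons and oligodendrocytes, had 2 counts in the knockout libraries and 3 in the het libraries, at or under that limit.

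Of the 3 genes of the rarer tubulins 0 passed in edgeR, DESeq2 or limma-voom, and 0 had an unadjusted p under 0.05 in edgeR. Tubg2, the less abundant gene for gamma tubulin, measured 1.65, 2.21 and 2.59 CPM in the knockout clones, against 0.180, 2.08 and 1.32 CPM in the het clones, with het replicate 1 far below the rest (adjusted p = 0.401, edgeR). Delta and epsilon tubulin belong to centrioles. Tubd1 averaged 7.98 ± 1.14 CPM in the knockout clones and 10.1 ± 1.497 CPM in the het clones (adjusted p = 0.239, edgeR). Tube1 averaged 12.9 ± 0.555 CPM in the knockout clones and 10.9 ± 0.751 CPM in the het clones, without overlap, and did not pass (log2 fold change 0.24, adjusted p = 0.257, edgeR; SD, n = 3 each).

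Of the 4 stathmins, Stmn1 fell, Stmn4 rose and 2 were too low to be tested. Stmn1 (ENSMUSG00000028832; chr4:134468320-134473843, plus strand, GRCm38), the stathmin of dividing cells, measured 141, 150 and 222 CPM in the knockout clones, against 291, 295 and 288 CPM in the het clones. The het clones were close to each other, and knockout replicate 3 lay between them and the other knockout clones. Of the 31-base stretches of the main Stmn1 transcript, 57.4% occurred in no other annotated gene and 37.8% also occurred in Gm11223. The division of its reads is therefore uncertain. The log2 fold change was -0.77 (SE 0.18, adjusted p = 0.0204, edgeR). The call was lost without knockout replicate 1, without knockout replicate 2, without het replicate 2 and without het replicate 3 (adjusted p = 0.0541 to 0.0866).

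Stmn4 (ENSMUSG00000022044; chr14:66344296-66361680, plus strand, GRCm38), a stathmin otherwise known from neurons, measured 15.5, 18.7 and 12.8 CPM in the knockout clones, against 2.57, 2.75 and 3.89 CPM in the het clones. The lowest knockout clone was well above the highest het clone. Its mean in the knockout clones was 5.10 times that in the het clones (log2 fold change 2.35, SE 0.25, adjusted p = 0.00154, edgeR). Stmn4 was thus higher in the knockout clones, in which Tubb3 and Tubb2b were lower. Per length, Stmn1 had 321 ± 113 TPM and Stmn4 26.4 ± 1.83 TPM in the knockout clones, against 539 ± 22.3 TPM and 5.94 ± 1.11 TPM in the het clones, so Stmn1 was the main stathmin RNA in both.

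The neuronal stathmins Stmn2 and Stmn3 were near the limit of detection. Stmn2 had 6 counts in the knockout libraries and 24 in the het libraries. Stmn3 had 34 counts in the knockout libraries and 6 in the het libraries, a ratio of knockout over het of 5.50 (exact 95% interval 2.28 to 16.03, for counting error only). With no filter on low counts, where 16.5% of 20416 genes passed, Stmn3 passed as well (log2 fold change 2.40, adjusted p = 0.0291, edgeR), and Stmn2 did not (-1.97, adjusted p = 0.106).

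**Figure D3:**
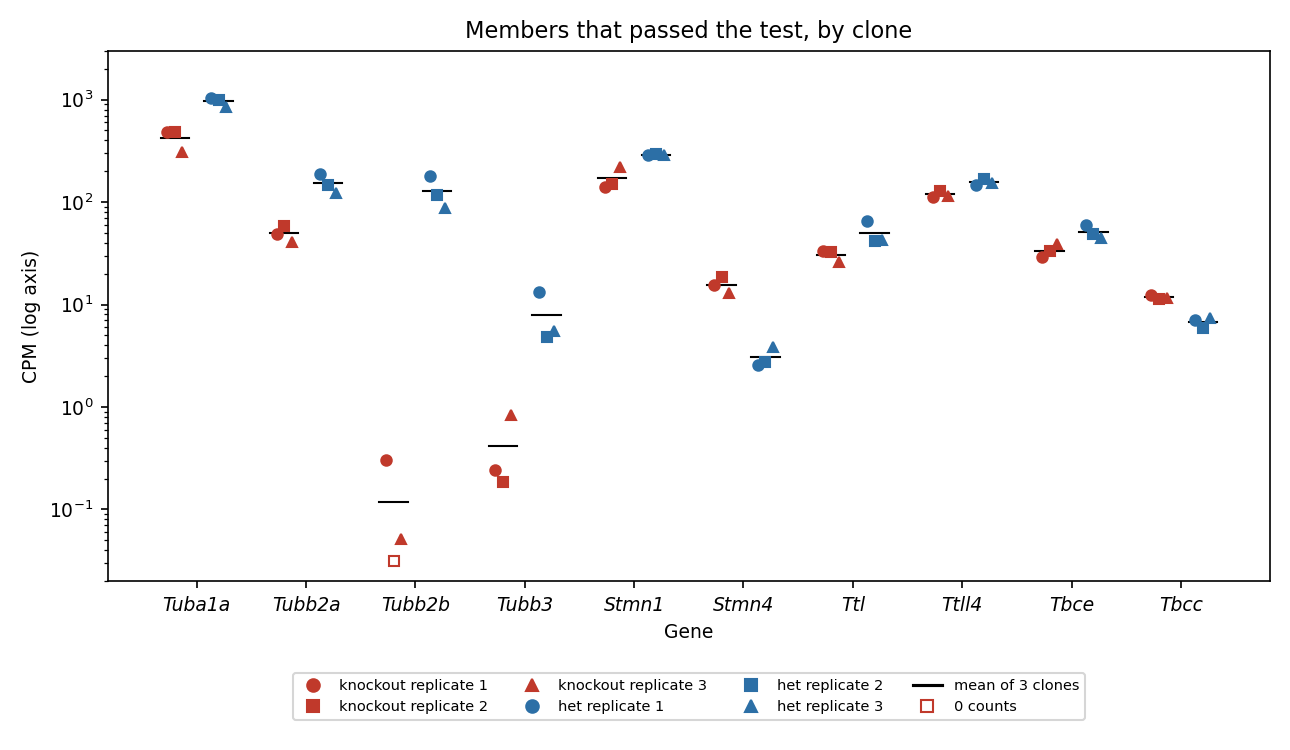
Level in CPM (vertical log axis) of the 10 genes that passed the test, with each knockout clone (red, left) and each het clone (blue, right) as a symbol and the mean of 3 clones as a bar. An open symbol below the others marks a library with 0 counts, which is Tubb2b in knockout replicate 2. Stmn4 and Tbcc are the genes whose knockout clones all lie above the het clones.

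Among the 5 ligases that modify the tails, Ttl and Ttll4 fell and 3 did not pass. Ttl (ENSMUSG00000027394; chr2:129065942-129096283, plus strand, GRCm38) encodes the ligase that restores the terminal tyrosine of alpha tubulin. It measured 33.1, 32.3 and 26.3 CPM in the knockout clones, against 64.9, 41.8 and 42.5 CPM in the het clones. The groups did not overlap, and het replicate 1 stood above the other het clones (log2 fold change -0.70, SE 0.20, adjusted p = 0.0388, edgeR). The call was lost in 5 of 6 fits that left out a clone, each but the one without het replicate 1 (adjusted p = 0.0511 to 0.104).

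Ttll4 (ENSMUSG00000033257; chr1:74661745-74703730, plus strand, GRCm38), a ligase that starts glutamate chains, mainly on beta tubulin, measured 113, 129 and 115 CPM in the knockout clones, against 146, 169 and 153 CPM in the het clones. This was the smallest change that passed among these genes (log2 fold change -0.40, SE 0.10, adjusted p = 0.0270, edgeR), without overlap. It too was lost in 5 of 6 fits that left out a clone, each but the one without het replicate 1 (adjusted p = 0.0514 to 0.0927). With the median of its 40 neighbours removed, which was -0.19, its log2 fold change was -0.23 (adjusted p = 0.137, edgeR).

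Ttll1, the catalytic part of a polyglutamylase complex, averaged 29.9 ± 2.001 CPM in the knockout clones and 31.6 ± 1.74 CPM in the het clones (adjusted p = 0.619, edgeR). Ttll5, another ligase that starts glutamate chains, averaged 29.2 ± 3.93 CPM in the knockout clones and 31.5 ± 0.700 CPM in the het clones (log2 fold change -0.11, adjusted p = 0.560, edgeR). The 40 genes around Ttll5 had a median log2 fold change of 0.53, and with it removed Ttll5 passed as lower (-0.60, adjusted p = 0.00683, edgeR), while on the deposited FPKM values its sign was positive. Ttll7, which glutamylates beta tubulin, averaged 77.2 ± 14.2 CPM in the knockout clones and 67.9 ± 12.5 CPM in the het clones (adjusted p = 0.488, edgeR; SD, n = 3 each).

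The acetyltransferase and the carboxypeptidases did not pass, with negative log2 fold changes of similar size, and 1 of these 3 genes, Agtpbp1, had an unadjusted p under 0.05. Atat1, which acetylates alpha tubulin inside the microtubule, measured 9.65, 12.4 and 15.6 CPM in the knockout clones, against 14.1, 16.02 and 16.6 CPM in the het clones (log2 fold change -0.31, adjusted p = 0.292, edgeR). Agbl5, the enzyme that removes branch-point glutamates, measured 11.1, 12.6 and 19.1 CPM in the knockout clones, against 18.9, 16.1 and 17.6 CPM in the het clones (log2 fold change -0.30, adjusted p = 0.352, edgeR). Knockout replicate 3 was the highest of all clones for Agbl5, and without it the gene passed as lower (-0.57, adjusted p = 0.0449, edgeR). Agtpbp1, which shortens glutamate chains, measured 37.3, 38.5 and 34.5 CPM in the knockout clones, against 48.2, 45.1 and 39.9 CPM in the het clones. Its groups did not overlap, and it did not pass (log2 fold change -0.27, adjusted p = 0.109, edgeR).

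Of the 5 folding cofactors, Tbcc rose, Tbce fell and 3 did not pass. Tbcc (ENSMUSG00000036430; chr17:46890684-46891847, plus strand, GRCm38), which drives release of the finished dimer, measured 12.3, 11.4 and 11.5 CPM in the knockout clones, against 7.002, 5.96 and 7.34 CPM in the het clones. The clones of each genotype were close together and the groups apart (log2 fold change 0.80, SE 0.17, adjusted p = 0.0157, edgeR). The call was lost without knockout replicate 1, without knockout replicate 2 and without het replicate 2 (adjusted p = 0.0530 to 0.0676).

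Tbce (ENSMUSG00000039233; chr13:13997949-14039638, minus strand, GRCm38), which holds alpha tubulin for joining to beta tubulin, measured 28.9, 33.1 and 38.6 CPM in the knockout clones, against 59.5, 49.2 and 44.8 CPM in the het clones. The highest knockout clone lay just below the lowest het clone (log2 fold change -0.61, SE 0.16, adjusted p = 0.0275, edgeR). The call was lost without the same 3 clones as for Tbcc (adjusted p = 0.0627 to 0.0980), and the adjusted p was 0.0504 with the local chromosome median removed. Of the 31-base stretches of its main transcript, 14.7% also occurred in the overlapping gene B3galnt2.

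Tbca, which receives beta tubulin, averaged 90.5 ± 7.68 CPM in the knockout clones and 101 ± 16.1 CPM in the het clones (adjusted p = 0.450, edgeR). Tbcb, which receives alpha tubulin, averaged 51.7 ± 0.737 CPM in the knockout clones and 56.5 ± 4.13 CPM in the het clones (adjusted p = 0.342, edgeR). Tbcd, which carries beta tubulin, averaged 98.8 ± 15.3 CPM in the knockout clones and 105 ± 4.799 CPM in the het clones (adjusted p = 0.641, edgeR; SD, n = 3 each). For Tbcb and Tbcd the nearby genes had median log2 fold changes of -0.42 and -0.53, the second over 22 neighbours.

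The counts were also tested transcript by transcript, which showed the RNAs that carry the gene differences. Of 162 transcripts of these genes with a count, 96 were tested, and 2 were higher (Stmn4-201 and Tbcc-201) and 5 lower (Tuba1a-201, Tubb2a-201, Tubb2b-201, Tubb3-201 and Ttll4-202) in the knockout clones. Among all 34761 transcripts tested, 7.92% passed. With no filter on low counts, Tuba1a-201, Ttll4-202 and Tbcc-201 did not pass (adjusted p = 0.0519, 0.0874 and 0.0688, edgeR). Tuba1a-201 averaged 433 ± 106 CPM in the knockout clones and 850 ± 75.9 CPM in the het clones (transcript-level log2 fold change -0.97, edgeR adjusted p = 0.0391). A shorter RNA of 916 bases, which is not in GENCODE M21 and was placed under Tuba1a by the authors' deposited table alone, made up 1.69% of the gene's counts in the knockout clones and 10.4% in the het clones (transcript-level log2 fold change -3.72, edgeR adjusted p = 0.129). Stmn4-201 held 58.2% of the gene's counts in the knockout clones and 61.9% in the het clones, and averaged 9.36 ± 1.95 and 1.87 ± 0.542 CPM (transcript-level log2 fold change 2.32, edgeR adjusted p = 0.0135).

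Ttll4-202, of 3762 bases, averaged 40.02 ± 2.13 CPM in the knockout clones and 58.4 ± 4.21 CPM in the het clones (transcript-level log2 fold change -0.55, SE 0.11, edgeR adjusted p = 0.0348). Ttll4-201, of 10019 bases and named here after its values were seen, averaged 39.8 ± 8.44 CPM in the knockout clones and 37.7 ± 5.88 CPM in the het clones (log2 fold change 0.08, SE 0.20, adjusted p = 0.846; SD, n = 3 each). Whether these RNAs differ in their response was not tested. Stmn1-201 and Ttl-201, which hold nearly all counts of their genes, did not pass at this level (adjusted p = 0.0709 and 0.128, edgeR on transcripts), and the most abundant transcript of Tbce had overlapping groups (log2 fold change -0.34, adjusted p = 0.440).

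The authors' deposited table compares 64 transcripts of 27 of these genes, of which 2 rose and 8 fell in knockout clones at an adjusted p under 0.05. Of all 24799 transcripts in the authors' deposited table, 14.0% had such an adjusted p. In the authors' deposited table both higher transcripts, Stmn4-201 and Stmn4-208, belong to Stmn4, with log2 fold changes of 2.28 and 1.98. Tbcc-201, Ttll4-202, Ttl-201 and Tbce-201 did not pass in the authors' comparison (its adjusted p = 0.115, 0.0675, 0.0833 and 0.499). The lower ones in the authors' deposited table include Stmn1-201 at -0.73 (adjusted p = 0.0194), the short Tuba1a RNA at -3.76 (adjusted p = 0.00304) and minor transcripts of Tbcb and Tbce. Of 63 transcripts tested in both ways, 61 had the same sign in the authors' deposited table as in the counts analysed here.

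Genes that work with these proteins were counted for comparison. Of all genes tested, 28.1% passed in either direction, 13.9% higher and 14.2% lower. The shares that passed in edgeR were 13.3% of the other modifying enzymes, 27.3% of the ring complex genes and 33.3% of the severing enzymes. They were 7.14% of the chaperonin and prefoldin genes and 14.3% of the folding partners. Of 15 other tested tubulin-modifying enzymes, 0 rose and 2 fell in knockout clones in edgeR. At an unadjusted p under 0.05 in edgeR, 2 were higher and 4 lower. DESeq2 called 0 higher and 3 lower, and limma-voom 1 higher and 3 lower. Vash2, a peptidase that removes the terminal tyrosine of alpha tubulin, averaged 16.4 ± 1.93 CPM in the knockout clones and 40.4 ± 6.11 CPM in the het clones (log2 fold change -1.30, adjusted p = 0.00226, edgeR). Ttl, the enzyme of the reverse reaction, fell too. Vash1, a relative of Vash2, had the opposite sign at a low level and did not pass. It averaged 1.35 CPM in the knockout clones and 0.631 CPM in the het clones (log2 fold change 1.09, adjusted p = 0.117, edgeR). Tpgs2, a subunit of the complex that contains Ttll1, fell as well (log2 fold change -0.72, adjusted p = 0.0169, edgeR), and this call was lost without knockout replicate 1 (adjusted p = 0.0566). Tubg1, the main gamma tubulin gene, averaged 89.4 ± 6.52 CPM in the knockout clones and 112 ± 13.01 CPM in the het clones (adjusted p = 0.0812, edgeR; SD, n = 3 each).

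Of 11 genes of the gamma-tubulin ring complex and its anchors, which start new microtubules, 2 were higher and 1 lower. Akap9 and Tubgcp2 rose (log2 fold changes 0.48 and 0.47, adjusted p = 0.0117 and 0.0118, edgeR), and Cdk5rap2 fell (-0.26, adjusted p = 0.0458). The calls of Tubgcp2 without knockout replicate 2 (adjusted p = 0.0531) and of Cdk5rap2 in 5 of 6 fits that left out a clone (0.0838 to 0.169) were lost, and that of Cdk5rap2 also in 6 of the other 9 alternatives (0.0518 to 0.414). Of 9 tested severing enzymes, which cut microtubules, Fignl1 rose (log2 fold change 0.64, adjusted p = 0.00392, edgeR) and Fign and Katna1 fell. Fign was at 0.435 ± 0.132 CPM in the knockout clones and 3.83 ± 1.14 CPM in the het clones (log2 fold change -3.11, adjusted p = 0.00317, edgeR). Katna1 had a log2 fold change of -0.51 (adjusted p = 0.0199, edgeR), lost without knockout replicate 1, without knockout replicate 2 and without het replicate 2 (0.0590 to 0.0849), and of 0.14 with the local chromosome median removed.

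The CCT chaperonin and prefoldin fold new tubulin. Of 14 tested genes, which are subunits of these complexes and their partner Pdcl3, Pfdn2 rose (log2 fold change 0.36, adjusted p = 0.0340, edgeR) and 13 did not pass. Pfdn2 missed the threshold on both FPKM scales (adjusted p = 0.194 and 0.196, limma). The summed level of these genes was 5879, 5092 and 3831 CPM in the knockout clones, against 4562, 4247 and 3516 CPM in the het clones. Knockout replicate 3, which was also the lowest knockout clone for Tuba1b, Tuba1c, Tuba4a and Tubb6, was the lowest of its genotype here. Without it 6 of these genes passed as higher. Without knockout replicate 1, knockout replicate 2, het replicate 2 or het replicate 3 none did, whereas edgeR without het replicate 1 called 1. Cct8 and Cct3 did not pass with all clones (log2 fold changes 0.49 and 0.32, adjusted p = 0.128 and 0.194, edgeR). Of 7 tested partners of tubulin folding and autoregulation, Tbccd1, a relative of Tbcc, rose (log2 fold change 0.58, adjusted p = 0.00757, edgeR), a call lost where the median of its neighbours was removed (0.34, adjusted p = 0.0572), while Tbcel and Arl2 did not pass (adjusted p = 0.129 and 0.647).

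As further context, 24 cell cycle genes were counted, of which 6 were higher and 6 lower. Aurkb, Birc5 and Bub1b, of the chromosome passenger complex and the spindle checkpoint, fell (log2 fold changes -0.53, -0.61 and -0.53, adjusted p = 0.00495, 0.0101 and 0.0115, edgeR), and Plk1, a mitotic kinase, rose (0.44, adjusted p = 0.00926). The other higher genes were Mcm2, Mcm3, Mcm6, Rrm1 and Rrm2 (log2 fold changes 0.39, 0.42, 0.50, 0.45 and 0.56). The other lower genes were Top2a, Ccnb1 and Cenpf (-0.46, -0.57 and -0.45). The calls of Bub1b and Plk1 were lost without knockout replicate 2 (adjusted p = 0.0564 and 0.0551) and with the local chromosome median removed (0.0998 and 0.0626). The summed level of the 24 genes overlapped, at 6747 to 6978 CPM in the knockout clones and 6619 to 7112 CPM in the het clones. Without a single clone, 0 to 6 of them were called higher, the lowest count without knockout replicate 2, and 2 to 7 lower, the lowest again without knockout replicate 2.

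The calls among the 33 genes differed in how far they depended on single clones and on the processing. Tuba1a, Tubb2a, Tubb2b, Tubb3 and Stmn4 passed in all 15 alternatives tried, which changed the tool, the scaling, the filter, the unit or the clones. Stmn1, Ttl, Ttll4, Tbce and Tbcc each lost the call in 3 to 6 of the 15.

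**Figure D4:**
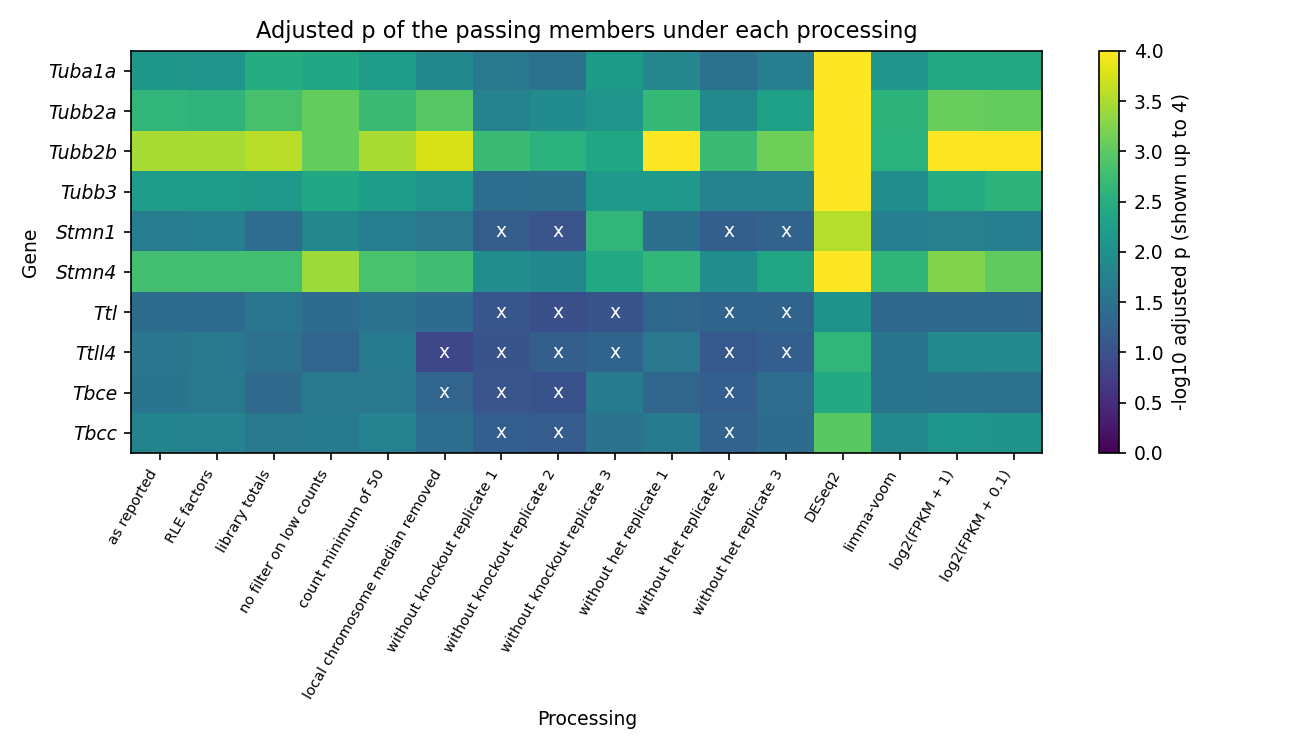
Adjusted p of the 10 passing genes (rows, colour on a -log10 scale) under the reported processing and 15 alternatives (columns), with an x where the adjusted p was 0.05 or more. Tuba1a, Tubb2a, Tubb2b, Tubb3 and Stmn4 have no x, and all marks of the other genes stand in columns that leave out a clone, except 1 each for Ttll4 and Tbce where the local median was removed.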

How the data were processed

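Poly(A) RNA of 6 clonal lines (3 knockout, 3 het by genotype labels) was, per the labels' protocols, made into libraries with a stranded kit. Reads were handled with kallisto 0.42.5, Trimmomatic 0.36 and edgeR (no version given) on build GRCm38.p4, as the submitters' processing notes record. Files from the authors gave estimated counts for 96626 transcripts, FPKM values for 24799, and a comparison per transcript with a log2 fold change and a p-value. The FPKM values entered only alternative fits on log2(FPKM + 1) and log2(FPKM + 0.1) and alternative isotype shares.

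Estimated counts were summed per gene with GENCODE M21 (95301 transcripts) and, for 253 others, the authors' deposited table (1072, with 0.0173% to 0.0273% of a library's counts, had no gene), rounded, filtered (filterByExpr, count minimum 10), scaled with TMM and tested with edgeR 4.0.16 (R 4.3.3), in two-sided tests at a Benjamini-Hochberg adjusted p of 0.05. Alternatives used DESeq2 1.42.0, limma 3.58.1, other scalings and filters, an offset for the median of 40 neighbouring genes, and each clone left out. TPM and isotype shares divide counts by transcript length, and shares were compared by exact permutation. Reads shared by alike genes are divided by estimation. The edgeR procedure was also run on simulated counts with 200 changed genes, fewer than the 3586 that passed in the data. No result here rests on that run. Sequences of the alpha tubulin genes are not reported here. All 33 members were named, and from other lists up to 4 passing genes with the smallest adjusted p, filled up with the 2 most abundant other genes if at most 1 passed. Of the cell cycle genes, all that passed were named, and Vash1 was named in addition as a relative of Vash2. The members and lists were chosen with earlier results of these data known.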

Additional observations from a re-analysis of the deposited data

How the results depend on the processing

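Over the 9 alternatives in tool, scaling, filter, unit and local median, 2 to 3 of the 33 genes were called higher and 7 to 8 lower, and over the 6 fits that left out a clone 1 to 3 higher and 4 to 8 lower. Signs turned for values that did not pass, and for Katna1, which had passed as lower. Tuba1b had log2 fold changes of -0.00668 and -0.00669 with RLE factors and DESeq2, -0.0249 with library totals, -0.0264 with a count minimum of 50, -0.00223 with the local median removed and -0.00382 with limma-voom, and -0.11 to 0.15 without a clone. Without a clone Tuba4a ranged from -0.068 to 0.37, Tbcd from -0.18 to 0.027 and Ttll4-201 from -0.087 to 0.20. With the local median removed Tubb4b stood at -0.12, Tbcb at 0.23, Tbcd at 0.44 and Katna1 at 0.14, and Ttll5 had 0.30 on log2(FPKM + 1) and 0.36 on log2(FPKM + 0.1). The differences in share, knockout minus het, ranged without a clone from -0.0275 to 0.00689 percentage points for Tuba8 and from -0.00229 to 0.000487 for Tubb4a, and those of the other detected isotypes kept their sign under every alternative. Of the lists, the ring complex had 0 genes called lower with library totals, no filter, the local median removed, limma-voom and both FPKM scales and 2 with DESeq2, and 1 to 2 higher and 0 to 1 lower without a clone. Chaperonin and prefoldin genes called higher numbered 0 on both FPKM scales and 0 to 6 without a clone. The folding partners had 0 higher and 1 lower with the local median removed, and 0 to 1 lower without a clone. Severing enzymes called lower numbered 1 with a count minimum of 50 and with the local median removed, and 1 to 2 without a clone. Cell cycle genes called higher numbered 3 with the local median removed, and those called lower 9 with DESeq2. Without a clone 0 to 6 cell cycle genes were higher and 2 to 7 lower. Among other modifying enzymes 1 was called higher with limma-voom, and 3 were called lower with DESeq2 and with limma-voom. Without a clone 0 to 1 of these enzymes were higher and 1 to 2 lower. Of the other tubulin genes 1 (Tubg1) was called lower with DESeq2 and 0 to 1 without a clone. The cause of these changes was not tested. No paired analysis was possible because the labels name the clones without replicate numbers, and the numbers used here only follow the order of the samples. Depth limits Tubb1, Tubb4a, Stmn2, Stmn3 and Tuba8, which had 0 to 87 counts per genotype.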
